A study of Rattus norvegicus with 16 samples.

Results

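The genes described here are the long non-coding RNA genes expressed in a pair of rat kidney cell lines, chosen by biotype and level: they were annotated as lincRNA (transcribed between protein-coding genes), lncRNA or antisense, and reached a CPM (counts of a gene per 1000000 counts of the library) of at least 1 in 4 or more of the 16 libraries. This held for 278 of the 32623 genes in all, of which 265 were lincRNA genes, 13 antisense genes and 0 of the biotype lncRNA. Long non-coding RNAs are transcripts without a protein product that can act on chromatin, on nuclear bodies, on the processing of other RNAs or as decoys for small RNAs, and many are spliced and polyadenylated like messenger RNAs. Their levels are as a rule lower and more restricted to particular cell types than those of messenger RNAs, and for most of those annotated in the rat no function is known.

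NRK-52E, a rat kidney epithelial line used as a model of the proximal tubule, was grown on permeable filter inserts above NRK-49F, a rat kidney fibroblast line, so that both lines shared the medium. After a period without serum, the co-cultures were kept for 48 h in medium of pH 7.4 or of pH 6.0, which the labels shorten to 7 and 6, and poly(A)-enriched RNA of each line was sequenced. The 4 groups were NRK-52E at pH 7.4, NRK-52E at pH 6.0, NRK-49F at pH 7.4 and NRK-49F at pH 6.0, with 4 libraries each, and every group came from co-culture. Nothing in the labels says that the libraries came from separate cultures, so p-values measure only the spread between these samples, which may be technical. In RNA from many cells, fewer cells of a kind and less RNA per cell cannot be told apart. The column names carry a second number whose meaning is not given in the sources used here and which divides each line, with libraries of 21 and 22 in NRK-52E and of 20 and 21 in NRK-49F, 2 per group.

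Library totals ranged from 16201084 to 34784862 counts, with a median of 20790017. By group they ran from 17760185 to 20612657 in NRK-52E at pH 7.4, from 16844811 to 23856187 in NRK-52E at pH 6.0, from 17518187 to 27607214 in NRK-49F at pH 7.4 and from 16201084 to 34784862 in NRK-49F at pH 6.0. FPM denotes CPM after TMM scaling over the 16 libraries; it is a share of fragments and not a level per length, so it is compared between groups and not between genes, whose transcript lengths were not taken into account. The 278 members were 8.83% of the 3149 lincRNA and antisense genes of the table, of which 1380 had a count in at least 1 library. Averaged over the 16 libraries, the members had a median of 2.15 FPM (quartiles 1.1 and 7.41), and 54 members averaged 10 FPM or more.

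The threshold fell in a dense range of low values. Just inside it, the fourth-highest CPM was 1.006 for AABR07021998.1, 1.014 for AABR07066529.3 and 1.017 for AABR07044408.3. Just outside, it was 0.978 for AABR07004232.2, 0.968 for AABR07034833.2 and 0.966 for AABR07012097.1. The level of 1 CPM was reached in all 16 libraries by 82 members, in libraries of both lines by 206, in libraries of NRK-52E alone by 49 and in libraries of NRK-49F alone by 23. Among these, 18 reached it only in NRK-52E at pH 7.4, 5 only in NRK-52E at pH 6.0, 6 only in NRK-49F at pH 7.4 and 1 only in NRK-49F at pH 6.0. A member admitted through 1 group had to be higher there, so counts over the members are given below as descriptions. Where a member would not have met the rule without the libraries of the higher group, its change is described with no p.

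Most members are known only by the name of the genomic clone they lie on (227) or by a LOC number (44), and 7 have another symbol. By symbol or synonym on the same chromosome, 15 members matched a RefSeq gene of assembly GRCr8, 12 of them classed there as lncRNA and 3 (Ly6l, Rfwd3 and RGD1565989) as protein-coding. The counting is not stated to use strand, so fragments of an antisense gene and of its partner cannot be told apart, and the 13 antisense members and any member that overlaps another gene are uncertain. Multi-mapping fragments were counted as well, so members with near-identical copies elsewhere are uncertain too.

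The labelled cell types were checked against marker genes. Of 11 epithelial markers, Epcam, Krt18, Cldn4, Cldn7 and Esrp1 were at or near 0 in all 4 groups, while Ocln had 41.2 ± 2.04 FPM (SD, n = 4) in NRK-52E at pH 7.4 and 9.67 ± 1.05 at pH 6.0 against 0 and 0.0992 ± 0.158 in NRK-49F at pH 7.4 and pH 6.0. Krt8, the gene of that list with the most fragments, was higher in NRK-49F at pH 7.4 (848 ± 70.4 FPM) than in NRK-52E (430.4 ± 32.0). Of 11 fibroblast markers, Col1a1 had 6205 ± 409.7 FPM in NRK-49F and 23.6 ± 3.84 in NRK-52E at pH 7.4 and Pdgfra 391.9 ± 54.7 against 0.287 ± 0.11. Col3a1 went the other way, with 6221 ± 95 FPM in NRK-52E against 458 ± 103 in NRK-49F at pH 7.4, while Thy1 had 0 counts in every library. Of 8 proximal tubule markers, Lrp2 and Slc34a1 stayed below 1 FPM in every library and Slc22a6 had 0 counts in both groups at pH 7.4, while Aqp1 ran from 16.7 to 69.4 FPM over the libraries of both lines. Ggt1, a brush border enzyme, was the gene of that list with the most fragments in NRK-49F. It had 1.53 ± 0.241 and 1.41 ± 0.764 FPM in NRK-52E at pH 7.4 and pH 6.0 against 112 ± 19.8 and 413 ± 84.8 FPM in NRK-49F, where it rose (log2 fold change 1.87 ± 0.16 (SE), edgeR adjusted p = 1.96e-06). Summed over the 11 epithelial markers, the NRK-52E libraries had 527.2, 486.6, 450.0 and 508.9 FPM at pH 7.4 and 417.4, 351.7, 376.8 and 335.8 FPM at pH 6.0, and the NRK-49F libraries had 826, 787, 951.2 and 845.2 FPM at pH 7.4 and 207, 221.4, 204.6 and 200.4 FPM at pH 6.0. Without Krt8 the epithelial sum lay between 38.13 and 65.26 FPM in NRK-52E and between 1.461 and 5.218 FPM in NRK-49F, so that the order of the lines at pH 7.4 turned. Summed over the 11 fibroblast markers, they had 6789, 6827, 6680.0 and 6542 FPM and 3421, 3306, 2882 and 1997 FPM in NRK-52E and 7809, 8228, 7132 and 8468 FPM and 9954, 9294, 9965 and 8285 FPM in NRK-49F. The gene with the most fragments in NRK-52E was Col3a1, and the other 10 summed to between 193.2 and 554.4 FPM there. In NRK-49F it was Col1a1, and the other 10 summed to between 917 and 2013 FPM. The sum over the 8 proximal tubule markers was 53.22, 49.45, 34.41 and 40.17 FPM and 30.7, 33.53, 25.94 and 38.22 FPM in NRK-52E and 137.5, 128.6, 154.8 and 165.9 FPM and 361.2, 386.6, 549.7 and 549.7 FPM in NRK-49F. It was higher in every NRK-49F library than in any NRK-52E library, and that order rests on Ggt1. Without it the NRK-52E libraries had between 25.25 and 51.44 FPM and overlapped with those of NRK-49F, at 27.98 to 79.23. In NRK-52E the gene with the most fragments was Aqp1, with 34.4 ± 7.64 FPM at pH 7.4 against 21.8 ± 3.88 in NRK-49F and 26.4 ± 3.95 against 41.6 ± 20.4 at pH 6.0. Lrp2 had 0.634 FPM in NRK-52E against 0.0126 in NRK-49F at pH 7.4, and 0.0118 against 0.0159 at pH 6.0. Other genes of the list had lower means in NRK-52E at pH 7.4. These were Cubn (0.804 against 2.54 FPM), Slc34a1 (0 against 0.466), Slc5a2 (0.813 against 0.978) and Slc3a1 (6.16 against 8.99). By pH, 1 of 5 tested epithelial, 0 of 8 fibroblast and 0 of 5 proximal tubule markers rose in NRK-52E and 4, 6 and 2 fell, while in NRK-49F 0 of 4, 0 of 9 and 1 of 5 rose and 2, 3 and 2 fell. Marker levels thus moved with pH in both lines, and their part in the results below was not tested. The groups are called by the names of the lines.

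The comparison of pH values asks how 48 h of acidosis changed each line. Called genes are those with an adjusted p below 0.01 in both edgeR and DESeq2 and the same sign. In NRK-52E, 253 of the 278 members passed the filter on low counts, and 55 of them (21.7%) were higher at pH 6.0, against 28.2% of all genes tested, while 66 (26.1%) were lower, against 28.5%. Neither share lay above the background, and 14 of the 55 and 22 of the 66 would not have met the rule without the libraries of the higher group. With library totals in place of TMM, 44 members were higher and 80 lower, and of all genes tested 21.1% were higher and 35.1% lower. The median log2 fold change of the tested members was -0.158 (quartiles -1.19 and 0.678) and that of all genes tested 0.00136. Members had larger errors than genes in general, with a median standard error of 0.317 against 0.164 on the log2 scale. With 2 libraries per group, 75 of 253 members tested were called within number 21 and 48 of 260 within number 22, beside 37.7% and 20.2% of all genes and 121 members over both numbers.

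AABR07058158.1, a lincRNA gene on chromosome 7, rose in NRK-52E. It had 23.1, 17.5, 20.8 and 15.9 FPM in the 4 libraries at pH 7.4 and 204, 176, 195 and 164 FPM at pH 6.0 (log2 fold change 3.24 ± 0.13 (SE), edgeR adjusted p = 5.13e-08). All 4 acidic libraries lay far above all 4 control libraries. In NRK-49F the same gene went from 65.8, 66.4, 65.9 and 57.5 FPM to 108, 102, 99.5 and 95.7 FPM (log2 fold change 0.65 ± 0.09 (SE), edgeR adjusted p = 9.16e-05), again without overlap, and the pH effects of the lines differed by 2.58 ± 0.16 on the log2 scale (edgeR adjusted p = 1.26e-09 for the interaction of line and pH). At pH 7.4 it was lower in NRK-52E than in NRK-49F, and at pH 6.0 it was higher.

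LOC102549726 on chromosome 20, which RefSeq also lists as a lncRNA, was among the members with the most fragments in both lines. In NRK-52E it had 34.4, 30.1, 25.2 and 30.6 FPM at pH 7.4 and 246, 158, 173 and 203 FPM at pH 6.0 (log2 fold change 2.68 ± 0.16 (SE), edgeR adjusted p = 2.76e-07). In NRK-49F the values were 86.5, 94, 104 and 78.7 FPM and 208, 208, 178 and 141 FPM (log2 fold change 1.0 ± 0.14 (SE), edgeR adjusted p = 9.74e-05). Both lines therefore had higher values in all 4 acidic libraries, and the rise was larger in NRK-52E by 1.67 ± 0.21 (edgeR adjusted p = 5.17e-06). The lines differed at pH 7.4, with no overlap, and overlapped at pH 6.0 (log2 fold change 0.07 ± 0.17 (SE), edgeR adjusted p = 0.705).

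The other rises named for NRK-52E started from at most 1.45 FPM in any control library. LOC102555924 on chromosome 5 had 0.0937, 0.328, 0.0415 and 0 FPM at pH 7.4 and 5.32, 4.72, 4.63 and 3.01 FPM at pH 6.0 (log2 fold change 5.11 ± 0.53 (SE)). For LOC102550392 on chromosome 3 the values were 0.0937, 0.0819, 0.207 and 0.0952 FPM and 3.0, 1.89, 3.44 and 6.21 FPM (log2 fold change 4.83 ± 0.51 (SE)). Each was at or below 0.328 FPM in every control library and at 1.89 FPM or more in every acidic library, but LOC102555924 reached 1 CPM in these 4 acidic libraries alone and LOC102550392 in 3 others, so that both were members through this group and had to be higher there. The value of LOC102555924 was 6.42 without replicate 2. In NRK-49F, LOC102550392 had 0.229, 0.202, 0.461 and 0.356 FPM and 1.33, 1.59, 1.82 and 0.845 FPM (log2 fold change 2.13 ± 0.40 (SE), edgeR adjusted p = 0.000757), and the interaction was 2.69 ± 0.69, given as a description as well. Its call was lost without replicate 13 (2.49) or 14 (2.59). AABR07050487.1 on chromosome 5 rose from 0.656, 0.205, 0.249 and 0.762 FPM to 3.18, 5.17, 4.51 and 2.21 FPM (log2 fold change 3.0 ± 0.42 (SE), edgeR adjusted p = 9.84e-05), and its groups did not overlap. Its NRK-49F groups, at 1.2, 2.12, 1.58 and 1.5 FPM and 2.39, 2.19, 1.2 and 2.13 FPM, overlapped (log2 fold change 0.28 ± 0.30 (SE), edgeR adjusted p = 0.462). AC141377.2 on chromosome X had 1.45, 0.86, 1.29 and 1.09 FPM at pH 7.4 and 13.1, 8.63, 9.1 and 15.8 FPM at pH 6.0 (log2 fold change 3.29 ± 0.27 (SE), edgeR adjusted p = 2.19e-06), so that its lowest acidic library was still well above its highest control library.

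Among called members of 3 FPM or more in the higher group, the 6 that fell most in NRK-52E had at most 0.533 FPM in any library at pH 6.0. Each reached 1 CPM in the 4 NRK-52E libraries at pH 7.4 and in no other, so that it had to be higher there, and the values that follow are a description. AABR07063274.1 on chromosome 6 had 5.9, 5.86, 5.39 and 5.81 FPM at pH 7.4 and 0.0612, 0.135, 0.082 and 0.047 FPM at pH 6.0 (log2 fold change -6.04 ± 0.29 (SE)). Its NRK-49F libraries held 44 counts in all at pH 7.4 and 2 at pH 6.0, without overlap and too few for the filter. AABR07008030.1 on chromosome 2 went from 2.11, 3.56, 3.9 and 3.24 FPM to 0.183, 0, 0.123 and 0 FPM (log2 fold change -5.40 ± 0.57 (SE)) and had 0 counts in all 8 NRK-49F libraries. In both genes every control library lay above every acidic library. AABR07032123.1 on chromosome 18 went from 3.94, 4.14, 3.48 and 5.09 FPM to 0, 0.045, 0.123 and 0.235 FPM (log2 fold change -5.24 ± 0.45 (SE)). Its NRK-49F libraries held 9 counts in all at pH 7.4 and 0 at pH 6.0, also too few for the filter. The NRK-52E values rest on few acidic counts, and were -6.05 for AABR07008030.1 without replicate 3 and -5.95 for AABR07032123.1 without replicate 8.

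AABR07045217.1 on chromosome 20 had 4.17, 3.65, 2.53 and 3.47 FPM at pH 7.4 and 0.0612, 0.18, 0.041 and 0.235 FPM at pH 6.0 in NRK-52E (log2 fold change -4.68 ± 0.41 (SE)), whereas its NRK-49F libraries had 0.343, 0.0505, 0.461 and 0.237 FPM and 0.0886, 0.332, 0.292 and 0.125 FPM. The NRK-49F groups overlapped and lay under 1 FPM in every library, and the interaction of -4.31 ± 0.79 rests on the group through which the gene was a member. AC099453.2 on chromosome 5 went from 6.18, 3.77, 4.02 and 3.81 FPM to 0.428, 0.405, 0.041 and 0.141 FPM (log2 fold change -4.19 ± 0.45 (SE)). In its control group 1 library, replicate 1, stood above the other 3, and all 4 lay above the acidic libraries. The NRK-49F libraries of AC099453.2 held 21 counts in all at pH 7.4 and 7 at pH 6.0, with overlap. The antisense gene AC116220.1 on chromosome 19 went from 3.05, 3.523, 5.22 and 4.95 FPM to 0.306, 0.225, 0.533 and 0.188 FPM (log2 fold change -3.72 ± 0.35 (SE)), with 0.343, 0.556, 0.395 and 0.83 FPM and 0.31, 0, 0.585 and 0.845 FPM in NRK-49F, where the groups overlapped and every library was under 1 FPM. Its interaction, -3.53 ± 0.73, rests on the same group.

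In NRK-49F, 234 members passed the filter, of which 42 (17.9%) were higher at pH 6.0, against 18.4% of all genes tested, and 39 (16.7%) were lower, against 19.4%. These shares were near the background, and 5 of the 42 and 5 of the 39 would not have met the rule without the higher group. The median log2 fold change was 0.238 for the tested members (quartiles -0.566 and 0.684) and -0.0029 for all genes tested. With 2 libraries per group, 55 of 232 members tested were called within number 20 and 33 of 242 within number 21, beside 35% and 14.3% of all genes and 81 members over both numbers.

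AC125248.1, a lincRNA gene on chromosome 18, had the largest log2 fold change among the falls named for NRK-49F. Its NRK-49F libraries had 53.1, 51.2, 42.3 and 33.1 FPM at pH 7.4 and 2.57, 1.53, 1.07 and 2.13 FPM at pH 6.0 (log2 fold change -4.63 ± 0.25 (SE), edgeR adjusted p = 9.25e-08). In NRK-52E it had 68.9, 67.5, 63.3 and 67.4 FPM and 34.5, 29.4, 30.1 and 36.8 FPM (log2 fold change -1.05 ± 0.11 (SE), edgeR adjusted p = 8.49e-06). Both lines had lower values in every acidic library, and the fall was larger in NRK-49F by 3.57 ± 0.27 (edgeR adjusted p = 1.32e-08).

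Ly6l on chromosome 7 is a lincRNA in the annotation used for the counts and a protein-coding gene of the Ly6 family in RefSeq, so its place among non-coding genes is uncertain. In NRK-49F it fell from 8.97, 8.14, 8.1 and 7.31 FPM to 0.886, 0.663, 0.877 and 0.688 FPM (log2 fold change -3.38 ± 0.21 (SE), edgeR adjusted p = 1.90e-07). In NRK-52E it fell from 78.4, 72.4, 67.4 and 78.4 FPM to 20.7, 24.3, 32.3 and 44.9 FPM (log2 fold change -1.29 ± 0.21 (SE), edgeR adjusted p = 0.000259). The lowest NRK-52E library lay above the highest NRK-49F library, and the fall was larger in NRK-49F by 2.07 ± 0.29 (edgeR adjusted p = 1.56e-05).

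Other falls in NRK-49F concerned genes with fewer fragments. AABR07016573.1 on chromosome 14 had 2.92, 3.64, 2.83 and 3.36 FPM at pH 7.4 and 0.354, 0.133, 0.357 and 1.0 FPM at pH 6.0 (log2 fold change -2.69 ± 0.41 (SE)), and the value was -3.40 without replicate 16. It reached 1 CPM in the 4 NRK-49F libraries at pH 7.4 alone and had to be higher there. In NRK-52E it had 0.0469, 0.123, 0.0829 and 0.143 FPM and 0.428, 0.674, 0.574 and 0.564 FPM, or 9 and 48 counts in all, too few for the filter of that comparison. The interaction of 5.10 ± 0.65 rests on that group and on these low values. AABR07030914.1 on chromosome 10 had 5.32, 5.86, 7.31 and 7.23 FPM and 0.974, 0.796, 0.812 and 2.0 FPM (log2 fold change -2.46 ± 0.30 (SE), edgeR adjusted p = 3.51e-05), with replicate 16 above the other 3 acidic libraries and below all controls. In NRK-52E it had 1.31, 0.655, 1.49 and 1.05 FPM and 0.122, 0.135, 0.615 and 0.047 FPM (log2 fold change -2.21 ± 0.57 (SE), edgeR adjusted p = 0.00525), a call that was lost without any 1 of replicates 1, 3, 4, 5 and 6, with values between -2.27 and -2.02, and whose value was -3.42 without replicate 7. It was -2.90 within number 21 and -1.91 within number 22, called in neither. AABR07044388.3 on chromosome 20 fell in a like manner in both lines. It had 7.43, 5.86, 4.15 and 6.8 FPM and 1.2, 0.928, 1.1 and 1.41 FPM in NRK-49F (log2 fold change -2.38 ± 0.24 (SE), edgeR adjusted p = 8.83e-06) and 6.75, 7.95, 7.88 and 7.14 FPM and 0.734, 1.12, 0.902 and 0.94 FPM in NRK-52E (log2 fold change -3.01 ± 0.20 (SE), edgeR adjusted p = 4.98e-07). The difference between the lines in its pH effect did not pass the threshold (-0.64 ± 0.31, edgeR adjusted p = 0.0917).

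Among the rises in NRK-49F, AABR07013729.1 on chromosome 2 had 1.83, 1.01, 1.12 and 1.38 FPM at pH 7.4 and 6.46, 6.9, 9.16 and 6.6 FPM at pH 6.0 (log2 fold change 2.43 ± 0.23 (SE), edgeR adjusted p = 5.32e-06). In NRK-52E its values of 1.69, 2.01, 2.57 and 2.523 FPM and 1.65, 3.24, 3.24 and 1.41 FPM overlapped (log2 fold change 0.10 ± 0.31 (SE), edgeR adjusted p = 0.784). The pH effects differed between the lines by -2.33 ± 0.40 (edgeR adjusted p = 0.000104). LOC102550577 on chromosome 10 had 0.0572, 0.253, 0.132 and 0.672 FPM and 2.66, 7.03, 1.3 and 1.78 FPM in NRK-49F (log2 fold change 3.31 ± 0.68 (SE)), and its acidic libraries spread widely, with replicate 12 the highest. Outside these 4 it reached 1 CPM in 2 libraries, so that it was a member through this group. The value was 2.60 without it and 4.28 without replicate 14. Within number 21 the value was 1.78 and not called. AABR07050423.1 on chromosome 5 rose in NRK-49F from 1.43, 1.516, 1.05 and 0.909 FPM to 3.54, 4.31, 4.55 and 3.88 FPM (log2 fold change 1.72 ± 0.25 (SE), edgeR adjusted p = 0.00011). In NRK-52E it had 1.12, 1.23, 2.36 and 1.62 FPM and 4.22, 2.74, 3.93 and 4.33 FPM (log2 fold change 1.24 ± 0.29 (SE), edgeR adjusted p = 0.00267), a call that was lost without replicate 2 of the control group, at 1.13. Within numbers 21 and 22 the values were 1.51 and 1.03, called in neither.

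Of the 209 members tested in both lines, 39 were called in both, which is 32.2% of those called in NRK-52E and 48.1% of those called in NRK-49F, against 38.0% and 58.8% over all genes. The direction was the same for 35 of them, 18 higher and 17 lower at pH 6.0, and opposite for 4. Over all genes called in both lines, 82.0% had the same direction, against 89.7% of these members. Across the 209 members the log2 fold changes of the lines had a Pearson r of 0.48, against 0.42 over the 12470 genes tested in both. Members are not independent replicates, and the lines shared wells and medium though no library.

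With 2 libraries per group, further calls by pH were lost within 1 number, in fits with fewer samples. In NRK-52E within number 22 these were AC120807.1 (0.76), AABR07050487.1 (2.72) and Ly6l (-0.93). In NRK-49F within number 21 they were AC134224.1 (0.39), LOC102550392 (1.70), LOC100912578 (0.37), AABR07054490.1 (-0.94), AABR07058158.1 (0.64), AABR07016573.1 (-2.20), AABR07030366.1 (-0.97), AABR07033564.2 (0.69) and LOC102549726 (0.78).

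**Figure D1:**
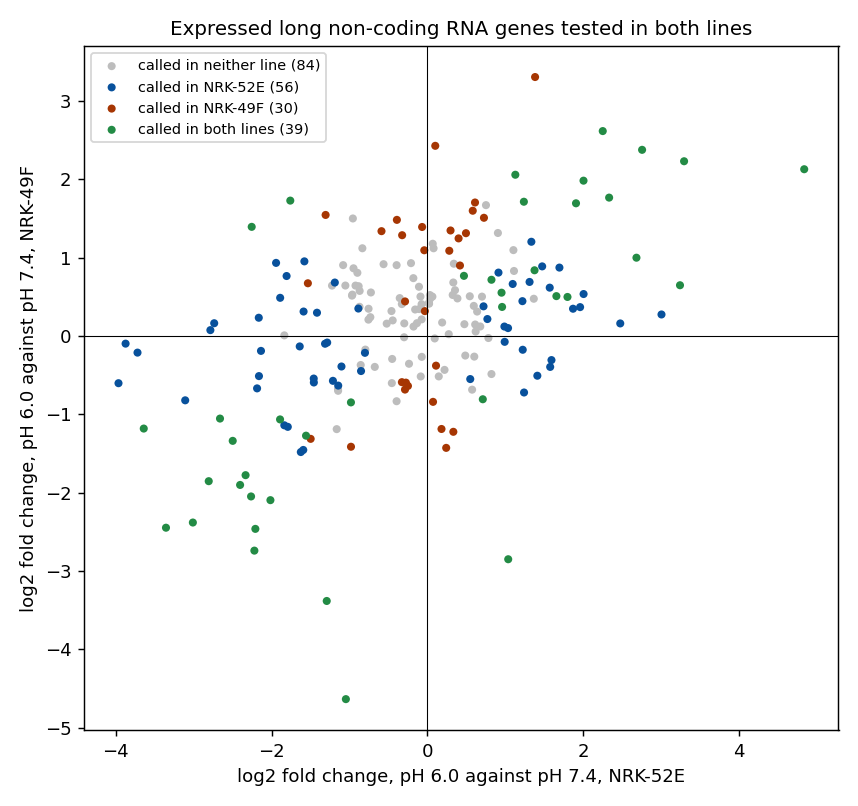
Each point is 1 of the 209 members tested in both lines, with the edgeR log2 fold change of pH 6.0 against pH 7.4 in NRK-52E on the x axis and in NRK-49F on the y axis. Of the 39 members called in both lines, 35 lie at the upper right or lower left of the axes through 0 and 4 at the upper left or lower right.

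The interaction of line and pH was called for 33 members (11.9% of 278 tested) with a more positive pH effect in NRK-52E, against 19.3% of all genes tested, and for 38 (13.7%) with a more positive effect in NRK-49F, against 17.5%. With library totals in place of TMM these numbers were 24 and 50, beside 12.4% and 24.4% of all genes tested, which moved the same way. AABR07045680.1 on chromosome 20 had opposite changes in the lines. In NRK-52E it rose from 14.1, 11.1, 9.99 and 11.7 FPM to 27.5, 19.2, 24.3 and 26.1 FPM (log2 fold change 1.04 ± 0.16 (SE), edgeR adjusted p = 0.000179). In NRK-49F it fell from 6.46, 5.15, 6.85 and 7.27 FPM to 0.443, 0.332, 1.01 and 1.6 FPM (log2 fold change -2.85 ± 0.37 (SE), edgeR adjusted p = 4.89e-05). The rise in NRK-52E was 0.85 within number 21 and not called there. Neither pair of groups overlapped, and the pH effects differed by 3.85 ± 0.39 (edgeR adjusted p = 3.67e-07).

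AC108574.1 on chromosome 11 likewise went up in NRK-52E and down in NRK-49F. In NRK-52E it had 46.7, 45.3, 44.1 and 42.6 FPM at pH 7.4 and 67.6, 69.5, 75 and 83.7 FPM at pH 6.0 (log2 fold change 0.71 ± 0.10 (SE), edgeR adjusted p = 7.49e-05). In NRK-49F it had 14.6, 12.3, 16.2 and 14.6 FPM and 11.2, 9.95, 5.49 and 6.85 FPM (log2 fold change -0.81 ± 0.22 (SE), edgeR adjusted p = 0.00797). The groups did not overlap in either line, but the call in NRK-49F was lost without any 1 of replicates 9, 10, 13, 14, 15 and 16, with values between -0.87 and -0.63. Within number 20 it was -0.34 and not called, and with library totals in place of TMM it was -0.76 and not called. The interaction kept its call without each library (1.51 ± 0.23, edgeR adjusted p = 3.95e-05).

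AABR07044635.1 on chromosome 20 moved the other way round. Its NRK-49F libraries had 9.55, 6.77, 5.99 and 14.2 FPM at pH 7.4 and 26.1, 22.5, 35.6 and 38.9 FPM at pH 6.0 (log2 fold change 1.73 ± 0.25 (SE), edgeR adjusted p = 0.000119). Its NRK-52E libraries had 0.89, 0.86, 0.705 and 0.428 FPM and 0.122, 0.045, 0.287 and 0.376 FPM (log2 fold change -1.76 ± 0.50 (SE), edgeR adjusted p = 0.0092). The rise in NRK-49F was without overlap, whereas the call in NRK-52E, at under 1 FPM, was lost without any 1 of replicates 1, 3, 4, 5 and 7, with values between -1.95 and -1.43, and was -3.43 within number 21 and -0.80 within number 22, called in neither. It was also lost with the second number as a covariate (-1.79) and with no filter on low counts (-1.80). The interaction was -3.50 ± 0.57 (edgeR adjusted p = 6.40e-05). AABR07035012.1 on chromosome 12 had 0.703, 1.43, 1.66 and 0.762 FPM and 0.306, 0.18, 0.164 and 0.329 FPM in NRK-52E (log2 fold change -2.26 ± 0.43 (SE), edgeR adjusted p = 0.000821). In NRK-49F its 0.514, 0.96, 0.329 and 0.593 FPM at pH 7.4 stood against 1.42, 1.39, 1.43 and 2.22 FPM at pH 6.0 (log2 fold change 1.39 ± 0.35 (SE)), and that call was lost without any 1 of replicates 9, 12, 13, 14, 15 and 16, with values between 1.20 and 1.47, and was 0.91 within number 20 and 1.90 within number 21, called in neither. Without the acidic NRK-49F libraries it would not have met the rule, so this rise and the interaction of -3.66 ± 0.56 are a description. The fall in NRK-52E was -2.21 within number 21 and -2.32 within number 22, called in neither.

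The comparison of lines at equal pH asks which members set the lines apart. At pH 7.4, 264 members were tested, of which 94 (35.6%) were higher in NRK-52E, against 33.3% of all genes tested, and 60 (22.7%) were higher in NRK-49F, against 33.3%. At pH 6.0, 251 were tested, of which 53 (21.1%) were higher in NRK-52E, against 28.6%, and 64 (25.5%) were higher in NRK-49F, against 31.3%. At pH 7.4 the share higher in NRK-52E was near that of all genes, and the share higher in NRK-49F lay below it. The order of the lines in these counts is a description, since the rule admitted members through the higher group. At pH 6.0 that order also depended on the scaling. Without the higher group, 27 of the 94 and 11 of the 60 at pH 7.4 and 12 of the 53 and 10 of the 64 at pH 6.0 would not have met the rule. With library totals in place of TMM, 118 members were higher in NRK-52E and 49 in NRK-49F at pH 7.4, and 59 and 57 at pH 6.0. All genes moved the same way, with 45.5% and 23.7% at pH 7.4 and 33% and 27.1% at pH 6.0. With the second number as a covariate, where the lines share number 21 alone and the difference rests on 2 libraries of each, 64 and 45 members were called at pH 7.4 (26.4% and 26.5% of all genes) and 35 and 50 at pH 6.0 (22.5% and 25.7% of all genes). At both pH values 36 members were higher in NRK-49F and 32 in NRK-52E, while 5 changed direction. The same counts over all genes were not made, so these are a description. Line went with the position in the well, insert or bottom, and these cannot be told apart.

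The 8 members named for the line reached 1 CPM in libraries of 1 line alone, so their line differences are a description. AABR07054490.1 on chromosome 3 had 0 counts in all 8 NRK-52E libraries. In NRK-49F it had 18.4, 13.7, 17.4 and 20.1 FPM at pH 7.4 and 5.71, 4.71, 7.54 and 12.3 FPM at pH 6.0. Against a floor of 3 counts over the group it was at least 532-fold higher in NRK-49F at pH 7.4 and at least 230-fold higher at pH 6.0, and it fell with acidosis (log2 fold change -1.20 ± 0.25 (SE), edgeR adjusted p = 0.00157). AABR07059380.1 on chromosome 4 was likewise confined to NRK-49F but for 2 counts, with 4.86, 5.41, 4.61 and 3.56 FPM at pH 7.4 and 7.22, 7.36, 10.8 and 12.51 FPM at pH 6.0 (log2 fold change 1.03 ± 0.22 (SE), edgeR adjusted p = 0.00182). Its difference between the lines at pH 7.4 was at least 137-fold over the same floor. The rise with acidosis was 0.51 within number 20 and not called there.

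AABR07030366.1 on chromosome 10 had 15.4, 16.3, 20.5 and 13.8 FPM and 4.78, 8.29, 7.57 and 10.01 FPM in NRK-49F (log2 fold change -1.12 ± 0.21 (SE), edgeR adjusted p = 0.000902) and at most 0.123 FPM in any NRK-52E library. AABR07015015.1 on chromosome 14 had 11.55, 13.3, 9.74 and 9.41 FPM and 3.85, 4.58, 5.33 and 8.98 FPM in NRK-49F (log2 fold change -0.96 ± 0.24 (SE), edgeR adjusted p = 0.00595). Its call by pH was lost without any 1 of replicates 9, 10, 11, 12 and 15, with values between -0.94 and -0.81, and with all 16 libraries in one fit (-0.96), and it was -0.44 within number 21. In NRK-52E it reached at most 0.143 FPM.

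Of the members nearly restricted to NRK-52E, AC120807.1 on chromosome 1 had 40.9, 41.7, 41.1 and 40.8 FPM at pH 7.4 and 68.2, 74, 79.1 and 61.4 FPM at pH 6.0 (log2 fold change 0.76 ± 0.09 (SE), edgeR adjusted p = 2.96e-05), and at most 0.286 FPM in any NRK-49F library. The 4 NRK-49F libraries held 6 counts in all at each pH, which gives ratios of 533 (exact binomial 95% counting interval 245 to 1450) at pH 7.4 and 1190 (547 to 3250) at pH 6.0. The fitted line difference was 9.03 ± 0.34 (SE) at pH 7.4 and 10.08 ± 0.35 (SE) at pH 6.0, and was 10.91 without replicate 9 and 11.75 without replicate 16. The acidic NRK-52E libraries all lay above the control libraries.

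RGD1563270 on chromosome X had 17.9, 17.2, 11.7 and 16.47 FPM and 16.6, 14.7, 14.7 and 16.8 FPM in NRK-52E, where the pH groups overlapped (log2 fold change -0.03 ± 0.16 (SE), edgeR adjusted p = 0.882). In NRK-49F it had 2 counts in all at pH 7.4 and 1 at pH 6.0, which gives ratios of 612 (exact binomial 95% counting interval 169 to 5060) and 1570 (281 to 61900). Both ratios rest on fewer counts than the floor of 3. The fitted line difference at pH 6.0 was 9.99 ± 0.41 (SE) and ranged from 9.6 to 11.41 with 1 library left out. AABR07005535.1 on chromosome 1 had 5.58, 5.49, 5.97 and 5.19 FPM and 7.4, 6.518, 8.16 and 6.91 FPM in NRK-52E (log2 fold change 0.36 ± 0.15 (SE), edgeR adjusted p = 0.0532) and at most 0.133 FPM in NRK-49F. AC108616.2 on chromosome 8 had 4.73, 3.97, 5.51 and 4.9 FPM and 4.16, 2.74, 4.22 and 9.83 FPM in NRK-52E, with replicate 8 the highest (log2 fold change 0.12 ± 0.35 (SE), edgeR adjusted p = 0.772), and 1 count over the 8 NRK-49F libraries. The pH change in NRK-52E did not pass the threshold for any of these 3, although the acidic libraries of AABR07005535.1 all lay above its control libraries.

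**Figure D2:**
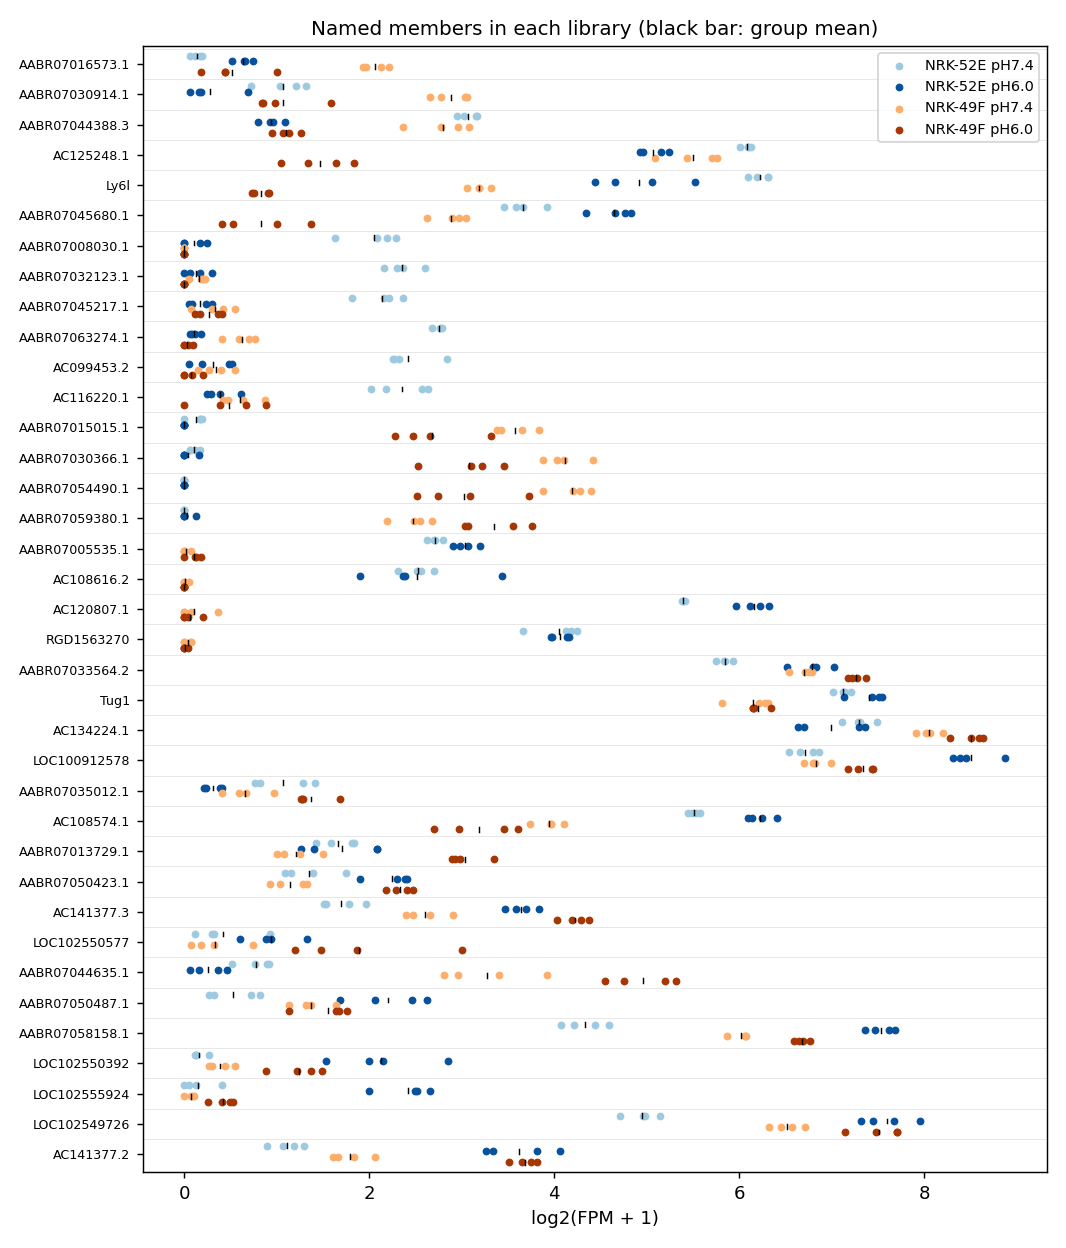
Each line is a member named by the rule, with log2(FPM + 1) of the 4 libraries of each group as points and their mean as a black bar. The acidic NRK-52E libraries of AABR07058158.1, between 164 and 204 FPM, lie right of the other groups of that gene.

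Among the members with the most fragments, LOC100912578 on chromosome 3 had 110.2, 91.8, 100.2 and 116 FPM in NRK-52E at pH 7.4 and 469, 334, 316 and 349 FPM at pH 6.0 (log2 fold change 1.80 ± 0.14 (SE), edgeR adjusted p = 1.40e-06). The NRK-49F libraries had 112, 110.2, 126 and 103 FPM and 173, 172, 155 and 144 FPM (log2 fold change 0.50 ± 0.10 (SE), edgeR adjusted p = 0.00148). The lines overlapped at pH 7.4 and separated at pH 6.0, and the rise was larger in NRK-52E by 1.28 ± 0.17 (edgeR adjusted p = 8.94e-06). AABR07033564.2 on chromosome 11 rose in both lines, from 60.2, 52.9, 55.9 and 56.7 FPM to 129, 113, 110.2 and 90.6 FPM in NRK-52E (log2 fold change 0.95 ± 0.11 (SE), edgeR adjusted p = 1.95e-05) and from 109, 107, 103 and 91.6 FPM to 143, 148, 154 and 165 FPM in NRK-49F (log2 fold change 0.55 ± 0.09 (SE), edgeR adjusted p = 0.00027).

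AC134224.1 on chromosome 1 had 178, 138, 157 and 155 FPM in NRK-52E at pH 7.4 and 155, 103, 98.2 and 163 FPM at pH 6.0, which overlapped (log2 fold change -0.29 ± 0.18 (SE), edgeR adjusted p = 0.17). NRK-49F had 259, 293, 267 and 239 FPM and 395, 385, 309 and 362 FPM (log2 fold change 0.44 ± 0.11 (SE), edgeR adjusted p = 0.00517), without overlap. That call was lost without any 1 of replicates 9, 11, 12 and 14, with values between 0.39 and 0.43, and with all 16 libraries in one fit, at 0.44. The values were higher in NRK-49F than in NRK-52E at both pH values (-0.67 ± 0.09 at pH 7.4, edgeR adjusted p = 4.30e-05).

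Tug1 on chromosome 14, a conserved nuclear and cytoplasmic RNA first found in the retina, is the single member found by symbol among 7 lists of known long non-coding RNAs. Of the nuclear body RNAs 1 of 6 was in the table (Tug1), of the snoRNA host genes 1 of 20 (Snhg11) and of the stress and growth linked RNAs 2 of 20 (Terc and Rpph1, neither a member). Of the 11 imprinted RNAs, 16 microRNA host genes, 4 X inactivation RNAs and 7 HOX cluster antisense RNAs 0 were found. With 227 members under a clone name and 44 under a LOC number, a listed RNA may be present under another name. Tug1 had 128, 138, 147 and 140.0 FPM in NRK-52E at pH 7.4 and 139, 185, 182 and 172 FPM at pH 6.0 (log2 fold change 0.27 ± 0.10 (SE), edgeR adjusted p = 0.0313). Its NRK-49F libraries had 78.1, 73.4, 76.4 and 55.1 FPM and 70.4, 69.9, 69.9 and 80.4 FPM (log2 fold change 0.02 ± 0.12 (SE), edgeR adjusted p = 0.876). The pH groups overlapped in both lines and neither passed the threshold, except that the NRK-52E value passed without replicate 3, at 0.35. All NRK-52E libraries lay above all NRK-49F libraries (1.05 ± 0.11 at pH 7.4, edgeR adjusted p = 4.13e-06, and 1.21 ± 0.11 at pH 6.0, edgeR adjusted p = 1.18e-06).

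The members together took 0.271 ± 0.011% of all counts in NRK-52E at pH 7.4 and 0.313 ± 0.0023% at pH 6.0 (SD, n = 4). In NRK-49F they took 0.226 ± 0.0116% and 0.272 ± 0.0108%. These are shares of raw library totals, without TMM scaling. At pH 7.4 the TMM factors ran from 1.15 to 1.23 in NRK-52E and from 0.867 to 0.922 in NRK-49F. The order of the lines at that pH therefore depends on the scaling. The single libraries ran from 0.261 to 0.286% and from 0.310 to 0.315% in NRK-52E and from 0.213 to 0.238% and from 0.258 to 0.284% in NRK-49F, so that the pH groups of a line did not overlap. The sum was carried by few genes, the 10 members with the most counts in a library holding between 36.4 and 54.7% of it. Since the members were chosen on these counts, no test is given.

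**Figure D3:**
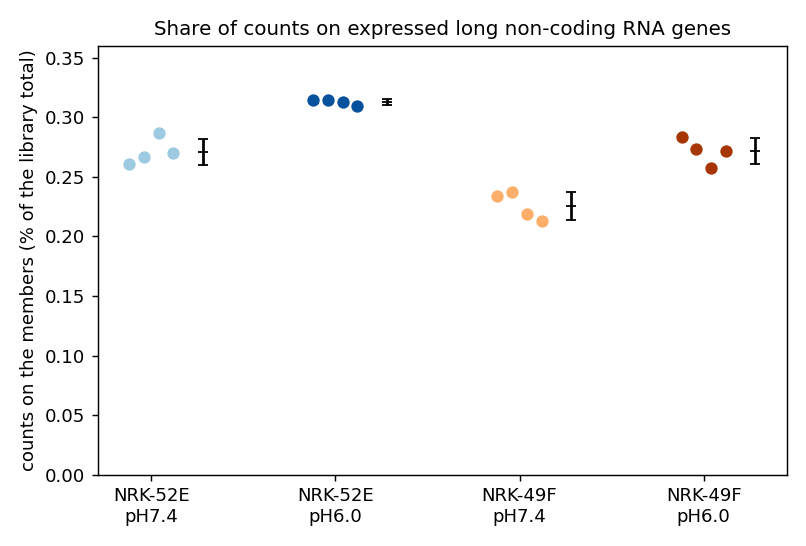
Points are the 16 libraries, with the percentage of all counts that fell on the 278 members on the y axis, and the bars show the mean and SD of each group of 4. The percentages are of raw library totals, without TMM scaling. The acidic libraries of NRK-52E lie between 0.310 and 0.315% and those of NRK-49F between 0.258 and 0.284%.

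A total of 26 members shared a clone name with another member, on 12 clones. AC141377.2 and AC141377.3 were named by the rule, while the other members below, and the clones as examples, were chosen after their values were seen. AC141377.3 had 2.44, 1.84, 1.91 and 2.9 FPM at pH 7.4 and 11.9, 10.1, 11 and 13.3 FPM at pH 6.0 in NRK-52E (log2 fold change 2.33 ± 0.20 (SE), edgeR adjusted p = 2.73e-06). In NRK-49F it had 6.516, 5.31, 4.54 and 4.27 FPM and 18.6, 19.8, 17.2 and 15.3 FPM (log2 fold change 1.77 ± 0.17 (SE), edgeR adjusted p = 5.07e-06). Its clone mate AC141377.2 rose as well in NRK-49F, from 2.06, 3.18, 2.57 and 2.17 FPM to 10.4, 12.47, 11.54 and 13 FPM (log2 fold change 2.23 ± 0.19 (SE), edgeR adjusted p = 2.10e-06), whereas the antisense member AC141377.1 of the same clone changed past the threshold in neither line (-0.46 ± 0.30 in NRK-52E and 0.32 ± 0.27 in NRK-49F). On clone AC119762 of chromosome 2, both members fell in NRK-52E and did not pass the threshold in NRK-49F. AC119762.7 had 2.81, 2.83, 2.78 and 2.62 FPM and 0.489, 0.45, 0.451 and 1.13 FPM in NRK-52E (log2 fold change -2.14 ± 0.32 (SE), edgeR adjusted p = 0.000158), and AC119762.8 had 5.53, 5.08, 4.85 and 4.28 FPM and 0.673, 0.45, 0.451 and 1.32 FPM (log2 fold change -2.79 ± 0.34 (SE), edgeR adjusted p = 3.03e-05). Their interactions with line were -1.96 ± 0.48 (edgeR adjusted p = 0.00237) and -2.88 ± 0.38 (edgeR adjusted p = 7.75e-06). On most of the other clones a single member or no member was called by pH in NRK-52E. AC116220.2, on the clone of AC116220.1, was not called there (-0.09, edgeR adjusted p = 0.777). Members of 1 clone may be parts of 1 transcript or share fragments, which was not tested. The values of AC141377.1, AC116220.2 and the AC119762 members were not run with libraries left out.

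In the RefSeq order of GRCr8, LOC102549726 lies between Hspa1b, which encodes an inducible Hsp70 chaperone, and Neu1, which encodes a lysosomal sialidase. Hspa1b rose in NRK-52E (mean 0.741 FPM at pH 7.4 and 6.49 at pH 6.0, log2 fold change 3.09 ± 0.27, edgeR adjusted p = 2.96e-06) and did not pass the threshold in NRK-49F (0.06 ± 0.25). Neu1 fell in NRK-52E (-1.25 ± 0.19, edgeR adjusted p = 0.000173) and rose in NRK-49F (0.63 ± 0.12, edgeR adjusted p = 0.00107). LOC102549726 was called as higher in both lines, and neither neighbour was. Whether the changes of these genes are linked was not tested. For Tug1, the neighbour Smtn, which encodes the cytoskeletal protein smoothelin, rose in NRK-52E (0.67 ± 0.12, edgeR adjusted p = 0.000382). It did not pass the threshold in NRK-49F (0.51 ± 0.15, edgeR adjusted p = 0.0132). Morc2, a chromatin-binding ATPase gene, did not pass the threshold in either line. Ly6h, next to Ly6l, rose in NRK-52E (mean 0.0117 FPM at pH 7.4 and 1.18 at pH 6.0, 6.13 ± 0.60, edgeR adjusted p = 6.58e-06), where Ly6l fell. LOC100361008, next to LOC102550392, and Plekhf2, next to LOC102555924, passed it in neither line.

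Promoters of 10 of the 15 matched members were at hand, each running from upstream of the RefSeq start into the transcript over 300 bases. They are shown for the 3 named members that had one, from RefSeq, GRCr8. Searched on both strands were TGACNNNGC (antioxidant response element core, in 12.1% of all 33469 promoters), TGATGCAA (amino acid response element, 0.795%), CACGTG (E-box, 6.42%) and CTTTCC (part of an oligopyrimidine start, 26.4%). None of TGACNNNGC, TGATGCAA and CACGTG was in the promoters of LOC102549726, LOC102550392 or Tug1, so no base is in capitals, and CTTTCC was in those of LOC102550392 and Tug1. The promoter of LOC102549726 is chr20:3880958-3881257 on the plus strand, that of LOC102550392 is chr3:34214004-34214303 on the plus strand and that of Tug1 is chr14:82750485-82750784 on the minus strand.
LOC102549726: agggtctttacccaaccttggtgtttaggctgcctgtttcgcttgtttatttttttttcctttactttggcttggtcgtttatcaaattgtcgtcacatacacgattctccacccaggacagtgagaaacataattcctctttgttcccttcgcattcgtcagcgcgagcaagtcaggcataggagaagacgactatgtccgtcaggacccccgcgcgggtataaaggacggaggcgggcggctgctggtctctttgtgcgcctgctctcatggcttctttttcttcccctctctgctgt
LOC102550392: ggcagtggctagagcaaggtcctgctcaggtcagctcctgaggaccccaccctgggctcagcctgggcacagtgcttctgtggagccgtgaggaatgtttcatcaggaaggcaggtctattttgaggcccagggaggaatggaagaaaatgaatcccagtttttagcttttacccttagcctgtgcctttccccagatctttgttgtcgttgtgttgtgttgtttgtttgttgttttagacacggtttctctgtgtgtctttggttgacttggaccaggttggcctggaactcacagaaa
Tug1: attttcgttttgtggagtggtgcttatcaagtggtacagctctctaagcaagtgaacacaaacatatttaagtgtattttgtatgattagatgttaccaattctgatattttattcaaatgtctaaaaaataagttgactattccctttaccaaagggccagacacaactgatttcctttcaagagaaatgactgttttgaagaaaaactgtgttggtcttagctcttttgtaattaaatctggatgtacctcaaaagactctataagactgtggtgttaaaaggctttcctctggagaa

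Proteins that bind, assemble or degrade non-coding RNA were counted beside the members. Of 8 core proteins of small nucleolar ribonucleoproteins, 4 rose and 1 fell in NRK-52E, and 6 rose and 1 fell in NRK-49F. Of 15 measured genes of the RNA exosome and its nuclear adaptors, 5 rose and 2 fell in NRK-52E, and 9 rose and 0 fell in NRK-49F, among them Exosc8 in both lines (1.47 ± 0.15, edgeR adjusted p = 7.55e-06, and 1.07 ± 0.13, edgeR adjusted p = 2.64e-05). Of 9 paraspeckle proteins, 2 rose and 1 fell in NRK-52E, and 2 rose and 4 fell in NRK-49F, with Rbm14 higher in NRK-52E (1.61 ± 0.16, edgeR adjusted p = 9.36e-06) and lower in NRK-49F (-0.52 ± 0.12, edgeR adjusted p = 0.00372). Of 10 nonsense-mediated decay factors, 3 rose and 1 fell in NRK-52E, and 1 rose and 3 fell in NRK-49F. These shares stand beside the 28.2% and 28.5% of all genes tested that rose and fell in NRK-52E and the 18.4% and 19.4% in NRK-49F.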

How the data were processed

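Poly(A)-enriched RNA of both lines was sequenced as read pairs. The authors deposited raw fragment counts per Ensembl gene, made with featureCounts on exons with multi-mapping fragments included and the rat genome rn6; the study's methods name tophat2 as aligner, whereas the submitters' processing notes name HISAT2 2.1.0. The counting options that the paper lists hold none for strand, and the strand setting is not otherwise given in the sources used here. The members and gene lists were chosen with earlier results of these data known.

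Pairs of groups that differ in 1 factor were compared over all genes with edgeR 4.0.16 (quasi-likelihood, TMM, filter on low counts) and DESeq2 1.42.0 in R 4.3.3, and the interaction of line and pH over all 16 libraries. A gene was called where the Benjamini-Hochberg adjusted p was below 0.01 in both tools and the signs agreed. Standard errors were the log2 fold change over the root of the F statistic. The code was tested on simulated data. Library totals of 16201084 to 34784862 counts set the precision, and intervals and floors cover counting error only.

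Named were, per line, 6 called members that rose most and 6 that fell most, at 3 FPM or more in the higher group without overlap. Added were members called in opposite directions in both lines and for the interaction, which were 2 per direction, and the 4 members per direction with the largest line difference called at both pH values, ranked by the mean of both log2 fold changes. The 4 members with the highest mean FPM per line and measured genes of the lists of known long non-coding RNAs were named too. Cell type markers were checked. Alternatives were other scaling, filters, tools and thresholds, a single fit, the second number as a covariate and within each number, and each library left out. An exact test of the share of counts on the members is not reported, since the members were chosen on these counts.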

Additional observations from a re-analysis of the deposited data

Results flagged for a closer look

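In 6 of 98 groups of 4 libraries of the named members, 1 library stood far from the other 3, where about 1 in 20, or 4.9 groups, is expected by chance. In NRK-49F at pH 6.0, AABR07013729.1 had 9.16 FPM in replicate 15 against 6.46 to 6.9 in the others. In the same group, replicate 16 was highest for Tug1 (80.4 FPM against 69.9 to 70.4), AABR07030914.1 (2.0 against 0.796 to 0.974) and AABR07035012.1 (2.22 against 1.39 to 1.43). In NRK-49F at pH 7.4, AABR07058158.1 had 57.5 FPM in replicate 14 against 65.8 to 66.4. In NRK-52E at pH 7.4, AC099453.2 had 6.18 FPM in replicate 1 against 3.77 to 4.02.

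For 16 of the 37 named members the pH effect differed between the lines by the interaction in edgeR and DESeq2, which was called for 25.5% of all members and 36.9% of all genes, but 25 of the 37 were named for a pH change, 14 of the 16 among them. That choice favours a difference between the lines, so the count is a description and is not read against these shares. The values of AABR07016573.1, LOC102550392, AABR07045217.1, AABR07035012.1 and AC116220.1 rest on a group without which the gene would not have met the rule. On the log2 scale, the effect in NRK-52E minus that in NRK-49F was positive for AABR07016573.1 (5.10, with under 1 FPM in every NRK-52E library), AABR07045680.1 (3.85), AC125248.1 (3.57), AABR07050487.1 (2.72), LOC102550392 (2.69), AABR07058158.1 (2.58), Ly6l (2.07), LOC102549726 (1.67), AC108574.1 (1.51) and LOC100912578 (1.28). It was negative for AABR07045217.1 (-4.31) and AC116220.1 (-3.53), both under 1 FPM in every NRK-49F library, AABR07035012.1 (-3.66), AABR07044635.1 (-3.50, under 1 FPM in every NRK-52E library), AABR07013729.1 (-2.33) and AC134224.1 (-0.75). The call of AC134224.1 was lost without any 1 of replicates 1, 4, 5, 6, 7, 9, 11, 12, 13, 14 and 16, with values between -0.76 and -0.63, and that of LOC102550392 without replicate 13 (2.49) or 14 (2.59).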

How the results depend on the processing

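The number of members called by pH in NRK-52E, 121, ranged from 101 to 134 with 1 library left out, and that in NRK-49F, 81, from 63 to 78. Between lines it ranged from 138 to 155 at pH 7.4 (154) and from 106 to 137 at pH 6.0 (117), and for the interaction from 57 to 75 (71). Over all genes the number called by pH ran from 6789 to 8914 in NRK-52E (7793) and from 4125 to 4992 in NRK-49F (5039). Between lines the number over all genes ran from 8562 to 9325 at pH 7.4 (9338) and from 7487 to 9263 at pH 6.0 (8251). For the interaction it ran from 4649 to 5952 (5412). Called over all libraries and without each were 93, 56, 131, 96 and 49 members. The same count over all genes was not made, so this loss is not set against a background. With 2 libraries per group, 75 of 253 and 48 of 260 members were called in NRK-52E within numbers 21 and 22, beside 37.7% and 20.2% of all genes. In NRK-49F 33 of 242 were called within number 21, beside 14.3% of all genes. Fewer samples enter these fits. For Tug1 in NRK-49F the log2 fold change of 0.02 ranged from -0.0853 without replicate 14 to 0.0706 without replicate 13, and was -0.0223 without replicate 16 and -0.107 within number 20. Its interaction was -0.00248 with library totals only; none of these was called, and the cause was not tested. With library totals in place of TMM, the all-gene median shifted by -0.21 in NRK-52E, by 0.31 and 0.15 between lines at pH 7.4 and pH 6.0 and by -0.23 for the interaction. The rule gave 357 members at 0.5 CPM, 196 at 2 CPM and 273 with TMM-scaled values. Values within numbers for single members and shares with a library left out were chosen after seeing the data. Members without overlap with other genes were not run, since coordinates of the build were not used here. Replicate numbers are not shared between groups, so no libraries were paired. The second number was held by 2 libraries of each pH group of a line. As a covariate it gave calls for 114 of 253 members tested in NRK-52E, 85 of 234 in NRK-49F and 68 of 278 for the interaction. Over all genes these were 7551 of 13735, 5211 of 13339 and 5268 of 14679. Between lines, which share number 21 alone, the covariate gave 109 of 264 members at pH 7.4 and 85 of 251 at pH 6.0. Over all genes these were 7417 of 14026 and 6660 of 13796. Members called as higher in NRK-52E at pH 6.0 went from 53 to 35. Of 709 values of named members under alternatives other than leaving out libraries or fitting within a number, 14 lost their call, as did 27 of 102 within a number. With 1 library left out, 64 of 1103 values lost their call. Members with fewer fragments had larger errors in NRK-52E, with a median standard error of 0.415 below 1 FPM, 0.357 from 1 to 3, 0.259 from 3 to 10, 0.17 from 10 to 100 and 0.124 above, and in the same order 48.0, 48.4, 39.3, 56.2 and 50.0% of them were called, beside 48.0, 53.3, 56.2, 56.2 and 65.0% of all genes. In NRK-49F 22.9, 27.9, 38.3, 44.7 and 83.3% of members were called, beside 26.0, 30.5, 35.9, 39.4 and 41.6% of all genes. These ranges of FPM held 50, 93, 56, 48 and 6 tested members in NRK-52E and 35, 86, 60, 47 and 6 in NRK-49F. In the highest range 3 of 6 members were called in NRK-52E and 5 of 6 in NRK-49F, too few to set against all genes.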
